A study of Mus musculus with 4 samples.

Results

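Troponins and tropomyosins are the proteins that switch striated muscle contraction on and off, and their signals were followed here over 24 probe sets of 10 genes. The members are all probe sets in the deposited value table whose platform annotation gives exactly 1 gene symbol out of Tnnt1, Tnnt2, Tnnt3, Tnni1, Tnni2, Tnnc1, Tnnc2, Tpm1, Tpm2 and Tpm3. They are 24 of 45101 probe sets and 10 of 18194 genes with a probe set of their own. No probe set carried a member symbol together with another symbol. Of the members, 5 belong to fast troponin genes, 6 to slow or cardiac troponin genes and 13 to tropomyosin genes.

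The study compared mouse eye tissue, labelled retina, from control animals with that from transgenic animals whose aqueous humor contained myocilin, a secreted glycoprotein. The question is what much myocilin around the retina does to gene expression there. Total RNA was measured on 4 one-colour Affymetrix arrays, 2 for control and 2 for the transgenic group. By their labels the control arrays are technical replicates of each other, and they count as 1 control sample. Strain, age, the promoter of the transgene and the number of animals are not given in the sources used here, nor whether the transgenic arrays stem from different mice. A p-value below thus holds no spread between control samples. It rests on the spread between the 2 transgenic arrays, which may be technical, and on a variance pooled over all tested probe sets.

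Tropomyosin is a coiled-coil protein that lies along the actin filament and covers the sites that myosin heads bind. Troponin sits on it as a complex of a T subunit that anchors it to tropomyosin, an I subunit that inhibits the filament and a C subunit that binds calcium and relieves the inhibition. Fast and slow fibres use different troponin genes: Tnnt3, Tnni2 and Tnnc2 encode the fast forms, Tnnt1 and Tnni1 the slow forms, Tnnc1 the form shared by slow fibres and heart, and Tnnt2 the cardiac T subunit. Tropomyosin genes also serve other cells. Through alternative starts and splicing each yields striated muscle, smooth muscle or cytoskeletal forms. In the eye, striated forms are known from the extraocular muscles and smooth muscle forms from the iris and ciliary body.

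Promoter sequences are shown for the genes on which the results turn: Tpm3, whose probe sets disagreed, and the slow and fast troponin C genes, which shared a direction. Each run is the 250 bases before an annotated start, 5′ to 3′ on the strand of the gene, from RefSeq on build GRCm38.p6. The upstream start of Tpm3 has chr3:90072401-90072650 (plus strand) before it and the internal start has chr3:90079271-90079520 (plus strand). The starts lie 6870 bases apart. The window of Tnnc1 is chr14:31208062-31208311 (plus strand) and that of Tnnc2 is chr2:164779735-164779984 (minus strand). Capitals mark matches on either strand to the E-box CANNTG, a site type of muscle regulatory factors, and to the M-CAT element GGAATG, a site type of TEAD factors.
Tpm3, upstream start: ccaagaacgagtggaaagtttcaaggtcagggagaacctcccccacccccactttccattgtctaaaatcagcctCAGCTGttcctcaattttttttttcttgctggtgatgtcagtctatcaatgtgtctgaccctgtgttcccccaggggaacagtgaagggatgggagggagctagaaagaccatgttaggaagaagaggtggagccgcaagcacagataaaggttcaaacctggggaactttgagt
Tpm3, internal start: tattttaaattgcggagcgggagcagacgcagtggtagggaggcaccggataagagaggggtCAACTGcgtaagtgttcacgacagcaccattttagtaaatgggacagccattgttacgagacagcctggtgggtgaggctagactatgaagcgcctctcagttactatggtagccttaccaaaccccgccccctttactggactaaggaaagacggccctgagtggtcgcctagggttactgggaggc
Tnnc1: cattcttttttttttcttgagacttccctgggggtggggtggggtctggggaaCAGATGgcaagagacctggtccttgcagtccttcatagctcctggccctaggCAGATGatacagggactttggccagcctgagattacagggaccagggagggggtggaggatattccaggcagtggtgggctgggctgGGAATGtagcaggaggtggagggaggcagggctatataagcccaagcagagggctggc
Tnnc2: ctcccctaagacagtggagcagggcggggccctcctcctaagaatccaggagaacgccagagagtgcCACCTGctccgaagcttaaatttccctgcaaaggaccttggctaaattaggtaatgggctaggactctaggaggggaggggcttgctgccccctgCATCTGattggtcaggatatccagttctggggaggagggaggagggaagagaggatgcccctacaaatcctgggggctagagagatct
Windows were found for 8 of the 10 genes, 11 windows in all, and those of Tnni2 and Tnnt3 are not shown. All 11 hold an E-box, as do 66.2% of the 32851 windows of the table. The Tnni1 windows overlap and share E-boxes, so the 11 are not all separate sequences. GGAATG occurs in 3 of 11, those of Tnnc1, Tpm1 and the upstream window of Tnnt2, against 12.6% of all windows. TATAAA occurs in 1 of 11, that of Tnnt1, against 12.4%. The MEF2 and CArG consensus sequences, searched on both strands, occur in 0 of 11 windows, against 2.92% and 1.47% of all. The searches were made separately, and in the windows of these genes no match overlapped one of another motif. These matches describe letters, not binding.

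The deposited signals had a mean of 150 on each array after trimming 2% of probe sets at each end, and medians from 47.1 to 50.3. This trimmed mean serves below as a reference level. Among 7 rod genes, which mark the labelled tissue, 0 had a mean above 150, and their signals summed to 231 on each control array and to 237 and 166 in transgenic samples. Of 9 fast skeletal muscle genes 8 were above 150, and of 9 smooth muscle genes 5. Of 8 slow or cardiac muscle genes 2 were above it, of 19 Z disc and thick filament genes 8, and of 16 thin filament partner genes 8. All 5 corneal epithelium genes and all 5 fibroblast genes were above it. Among all 45037 probe sets other than array controls, 11956 were above it, and the slow or cardiac count of 2 of 8 was close to that share. Each list gene was taken by its brightest probe set, which favours values above the reference level. In bulk tissue, fewer cells of a type and less RNA per cell cannot be told apart, which holds for every value below.

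In the transgenic samples the Tpm3 signal rose on 2 probe sets, while troponin signals were higher on most probe sets without passing the test. Values were compared as log2(signal + 16), a scale on which changes of dim probe sets look smaller than they are. Changes, given with their standard error (SE), come from limma with Benjamini-Hochberg adjustment over the 27022 probe sets above a filter on low signals, at a threshold of 0.05. Of the 24 member probe sets 22 passed the filter, and all 22 had a control mean above its level of 30.0. Among the 22, 2 were called, both higher, against 0.0555% of all probe sets tested called higher and 0.0777% called in either direction. At an unadjusted limma p under 0.05 there were 9, of which 8 were higher and 1 lower, against 4.14% and 2.92% of all tested. Both transgenic arrays lay above both control arrays for 15 of 22 and below both for 1, against 21.1% and 23.6% of all tested. The median log2 change of the 22 was 0.29, against −0.02 over all tested, and it was 0.17 without control replicate 1. Several members are probe sets of the same gene, so these counts are not over independent units.

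Among the troponin I genes, the slow form Tnni1 was at 124 and 152 in control and at 270 and 230 in transgenic samples. The groups did not overlap, and the transgenic mean was 1.81 times the control mean. The log2 change of 0.79 ± 0.18 (SE) did not pass (limma adjusted p = 0.263). The fast form Tnni2 was at 879 and 856 in control and at 1356 and 1197 in transgenic samples on its probe set with the highest signal. Its groups did not overlap either, with a change of 0.55 ± 0.12 (adjusted p = 0.238).

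Probe sets of Tnni2 did not tell the same story. A second one, whose name ends in _x_at, the mark of probes that may also bind other transcripts, was at 676 and 773 in control and at 749 and 732 in transgenic samples. There the transgenic arrays fell between the control arrays, and the change was 0.03 ± 0.12 (adjusted p = 0.988). On log2 scale the offset between these probe sets within an array went from 0.37 and 0.14 in control to 0.84 and 0.70 in transgenic samples. This shift of 0.51 was not tested. Another Tnni2 probe set had signals from 2.52 to 15.1 over the 4 arrays, below the filter, and was not tested.

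For troponin C, the calcium sensor, both genes were higher on both transgenic arrays. Tnnc1 was at 325 and 322 in control and at 529 and 460 in transgenic samples, a change of 0.59 ± 0.14 (adjusted p = 0.307). The control arrays were close to each other, and the lower transgenic array was clearly apart from them. Tnnc2 was at 1662 and 1563 in control and at 2193 and 2278 in transgenic samples, a change of 0.47 ± 0.10 (adjusted p = 0.238). Each gene has 1 probe set, so no second measure of it exists on these arrays. Neither passed the test.

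In troponin T the slow form again lay farther from control than the fast form, without a test of that difference. Tnnt1 was at 177 and 145 in control and at 265 and 235 in transgenic samples, with a change of 0.59 ± 0.17 (adjusted p = 0.422). The fast form Tnnt3 was at 728 and 855 in control and at 883 and 978 in transgenic samples. Its groups came within a small gap of each other, and the change was 0.23 ± 0.12 (adjusted p = 0.768), with a range of 0.12 to 0.35 over all settings. Tnni2 and Tnnt3 are near neighbours on chromosome 7, with 1 protein-coding gene between them, and their changes were 0.55 and 0.23.

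The cardiac T subunit gene Tnnt2 was dim and varied between the transgenic arrays. Its brightest probe set was at 47.8 and 51.7 in control and at 111 and 64.1 in transgenic samples, with a change of 0.62 ± 0.31 (adjusted p = 0.763), or of 0.95 and 0.28 by each transgenic array alone. A second one, ending in _x_at, was at 26.0 and 43.1 in control and at 41.8 and 62.3 in transgenic samples, so that the groups overlapped (change 0.43 ± 0.34). One more lay under the filter, with signals of 16.7 and 8.66 in control and of 1.55 and 1.35 in transgenic samples. Tnni3, the cardiac I subunit gene and no member, was between 0.955 and 8.00 on the 4 arrays and was not tested.

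**Figure D1:**
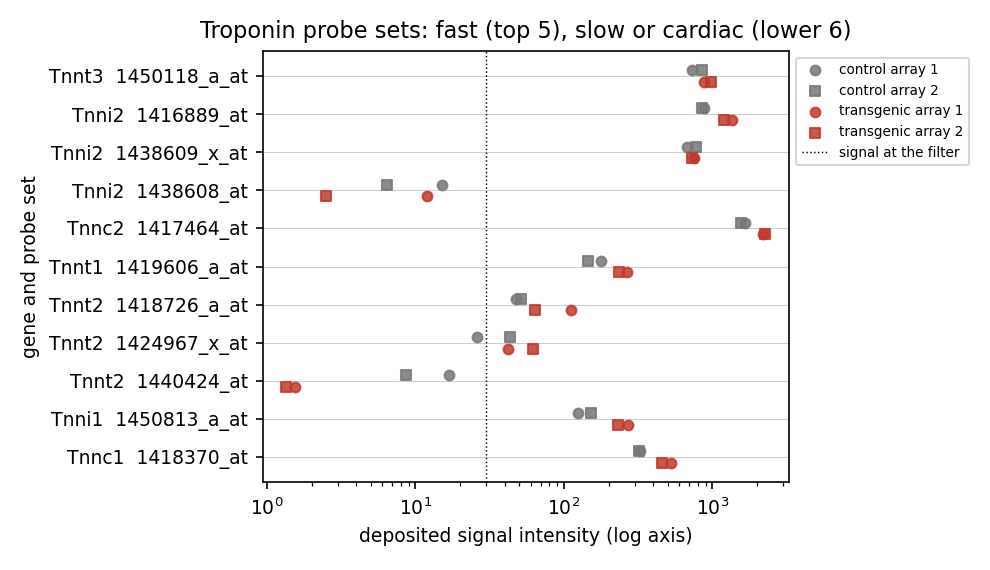
Deposited signal intensity (log axis) of the 11 troponin probe sets on each array, fast genes in the upper 5 lines and slow or cardiac genes in the lower 6; grey points are the 2 control arrays, red points the 2 transgenic arrays, and the dotted line is the filter level of 30.0. The transgenic points lie to the right of the control points for Tnni1, Tnnc1, Tnnc2, Tnnt1, Tnnt3 and one Tnni2 probe set, while the _x_at probe set of Tnni2 shows overlap and 2 probe sets lie left of the line.

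By their means, slow troponins were farther above control than fast troponins on both transgenic arrays. The mean log2 value of Tnnt3, Tnni2 and Tnnc2, each by its brightest probe set, lay 0.41 and 0.42 above the control mean on the transgenic arrays. That of Tnnt1, Tnni1 and Tnnc1 lay 0.75 and 0.56 above it. The difference between slow and fast was thus 0.34 on one transgenic array and 0.14 on the other, while the control arrays lay 0.02 to either side of their mean. By subunit the slow form showed the larger change for I (0.79 and 0.55), for C (0.59 and 0.47) and for T (0.59 and 0.23). For C this held on transgenic array 1 only (0.683 for Tnnc1 and 0.441 for Tnnc2). On transgenic array 2 the changes were 0.488 and 0.495. The slow probe sets were also dimmer, and the part of signal level in this difference was not tested. Over probe sets, the median change was 0.35 for the 4 tested fast ones and 0.59 for the 5 tested slow or cardiac ones.

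**Figure D2:**
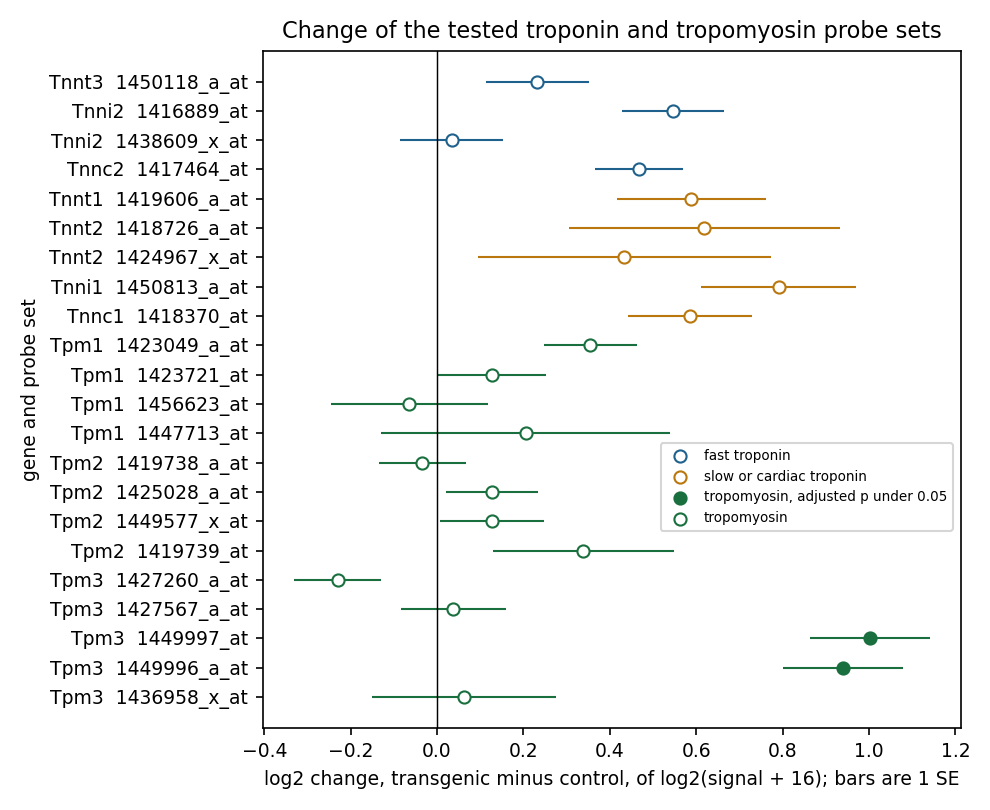
Log2 change (transgenic minus control, of log2(signal + 16)) of the 22 tested probe sets, 1 line each, with bars of 1 SE from limma; filled points passed an adjusted p of 0.05. Only the Tpm3 probe sets at 1.00 and 0.94 are filled, and the slow or cardiac troponins lie between 0.43 and 0.79.

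Tropomyosin signals split by probe set, most of all for Tpm3, which encodes the slow muscle form and, from its internal start, short cytoskeletal forms. One Tpm3 probe set was at 283 and 330 in control and at 587 and 671 in transgenic samples, a mean of 629 ± 59.8 (SD, n = 2) and 2.05 times the control mean. It rose by 1.00 ± 0.14 (adjusted p = 0.0275). A second was at 244 and 249 in control and at 493 and 482 in transgenic samples, a mean of 487 ± 8.00 (SD, n = 2) and 1.98 times the control mean. It rose by 0.94 ± 0.14 (adjusted p = 0.0372). On both, the transgenic arrays were clearly above the control arrays. The platform annotation ties these probe sets, and no other probe set of Tpm3, to a RefSeq transcript, and it is the same transcript for both, so they are not independent measures of the gene.

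The other 3 Tpm3 probe sets did not pass. The brightest, which the annotation ties to a different sequence record, was at 2407 and 2219 in control and at 1996 and 1942 in transgenic samples. Here both transgenic arrays lay below both control arrays, with a change of −0.23 ± 0.10 (adjusted p = 0.679). Another was at 619 and 734 in control and at 672 and 713 in transgenic samples, and the last, ending in _x_at, at 168 and 158 in control and at 145 and 199 in transgenic samples. Their groups overlapped, with changes of 0.04 ± 0.12 and 0.06 ± 0.21.

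Within an array, the log2 offset of the probe set that rose most from the brightest Tpm3 probe set was −3.02 and −2.69 in control and −1.74 and −1.51 in transgenic samples. This shift of 1.23 was not tested. The same offset for the second probe set that rose shifted by 1.17. The offset between the pair that rose shifted by 0.06, less than the spread within either group. Which of the starts shown above each probe set reports is not given by the annotation.

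Calls for Tpm3 depended on the model. In limma without the filter the adjusted p was 0.805 and 0.723, without the intensity trend 0.905 for both, and without control replicate 1 it was 0.0549 and 0.0521, with changes of 0.90 and 0.93, so that 0 of 22 members then passed. Over 12 tests in other settings, 9 kept the call for each probe set. These include the settings that treat all 4 arrays as separate samples, although the control arrays are 1 sample. The lowest adjusted p, 4.94e-08 and 8.70e-07, came from limma in such a setting, the one with the replicate block. The highest was 0.905.

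Tpm1, which encodes the alpha form of striated and smooth muscle as well as cytoskeletal forms, has 4 probe sets. The brightest was at 1144 and 1259 in control and at 1591 and 1491 in transgenic samples, a change of 0.36 ± 0.11 (adjusted p = 0.452) with no overlap of the groups. The next was at 803 and 793 in control and at 931 and 819 in transgenic samples (change 0.13 ± 0.12). Another stood at 200.0 and 199 against 177 and 204, where the groups overlapped (−0.06 ± 0.18). The dimmest was at 33.5 and 36.8 against 44.9 and 41.0 (0.21 ± 0.34), with a standard error larger than its change.

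Tpm2, the gene of the beta form of skeletal and smooth muscle, differed little between the groups on its bright probe sets. The brightest was at 2257 and 2376 in control and at 2321 and 2203 in transgenic samples, with overlap and a change of −0.03 ± 0.10. Others were at 1486 and 1545 against 1605 and 1708 (0.13 ± 0.11) and, on one ending in _x_at, at 611 and 640 against 692 and 677 (0.13 ± 0.12). The dimmest was at 98.3 and 110 in control and at 130.0 and 141 in transgenic samples, a change of 0.34 ± 0.21 (adjusted p = 0.817). Of these 4, all but the brightest were higher on both transgenic arrays, against 21.1% of all tested probe sets. None passed in limma. Over the 13 tropomyosin probe sets the median change was 0.13, with 10 above and 3 below 0.

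**Figure D3:**
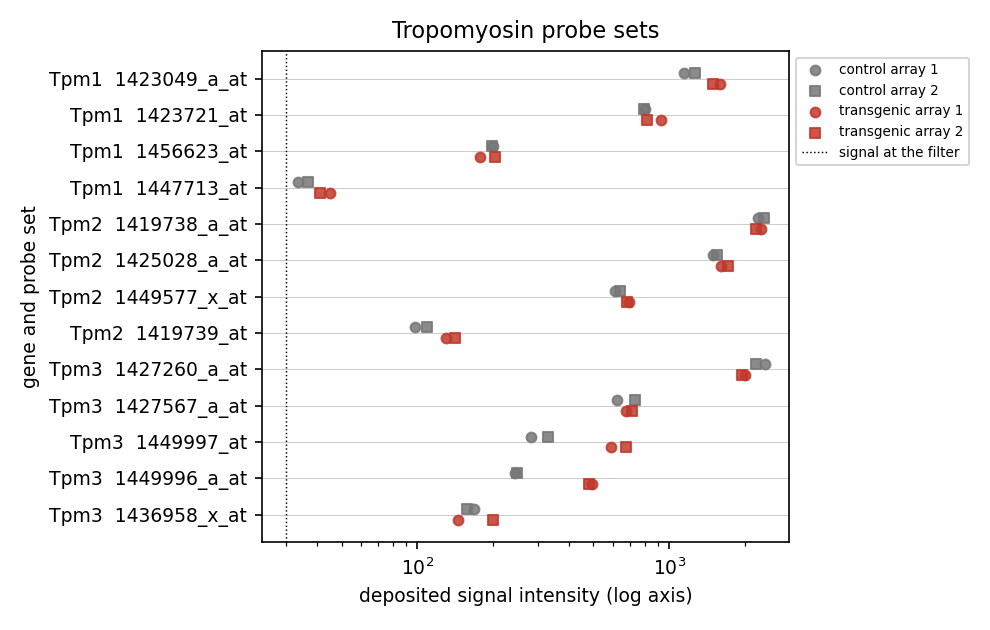
Deposited signal intensity (log axis) of the 13 tropomyosin probe sets on each array; grey points are the 2 control arrays, red points the 2 transgenic arrays, and the dotted line is the filter level of 30.0. The Tpm3 probe sets at 283 and 330 and at 244 and 249 in control show red points far to the right, while the brightest Tpm3 probe set shows them to the left.

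Other parts of the thin filament gave no call. Of 14 tested partner genes 0 were called in limma, 2 had an unadjusted p under 0.05, and 10 were above 0, with a median of 0.10 against −0.02 over all tested probe sets. Without 1 array this median was 0.08 (control replicate 1 left out) and 0.18 (each of the others left out). Each gene of this and the following lists is taken by its brightest probe set. For comparison, 12666 of the 27022 tested probe sets were above 0. At an unadjusted limma p under 0.05, 4.14% of them were higher and 2.92% lower. The largest changes were 0.39 ± 0.15 for Cfl2, a muscle cofilin, 0.38 ± 0.10 for Acta1, the skeletal actin, 0.28 ± 0.17 for Neb, which encodes nebulin along the filament, and 0.26 ± 0.35 for Lmod3, a nucleator at its end. Tpm4, a cytoskeletal tropomyosin gene outside the members, stood at 0.10 ± 0.10.

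Z disc and thick filament genes were above 0 for all 14 tested of 19, with a median of 0.33, and of 0.24 over all 19. Smpx, a small muscle protein gene, passed with 0.89 ± 0.12 (adjusted p = 0.0232), and 6 had an unadjusted p under 0.05. The next were Myoz2, the myozenin of slow fibres and heart, at 0.79 ± 0.19, Myot (myotilin) at 0.58 ± 0.16 and Tcap (titin cap) at 0.53 ± 0.14, which did not pass. Both transgenic arrays lay above both control arrays for 9 of the 14, against 21.1% of all tested probe sets.

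Fast muscle markers lay above 0 for all genes but Myh4. Of 9 tested genes of this list 2 were called in limma, against 0.0555% of all tested probe sets called higher. They were the myosin light chain genes Myl1 at 1.00 ± 0.09 (adjusted p = 0.00341) and Mylpf at 0.87 ± 0.10 (adjusted p = 0.00732). The median over the list was 0.29. Pvalb, the calcium buffer parvalbumin, at 0.50 ± 0.12 and the myosin heavy chain gene Myh2 at 0.48 ± 0.12 did not pass. Myh4, another fast myosin heavy chain gene, stood at −0.12 ± 0.13. The signals of the 9 genes summed to 10244 and 10219 in control and to 15589 and 15799 in transgenic samples. Of these sums Myl1 held 3191 and 3051 in control and 6296 and 6251 in transgenic samples. Mylpf held 1710 and 1829 against 3172 and 3332. Of these 9 genes 4 had an unadjusted limma p under 0.05, all higher, against 4.14% of all tested probe sets. The part of the 9 genes in the troponin and tropomyosin values was not tested.

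Slow or cardiac and smooth muscle markers gave no call. Of 5 tested slow or cardiac genes 0 were called in limma and 2 had an unadjusted p under 0.05, with a median of 0.41. Over all 8 genes of the list, tested or not, the median was −0.0028. Besides Myoz2 the largest changes among tested genes were 0.42 ± 0.23 for Casq2, a calcium store protein gene, and 0.41 ± 0.17 for the myosin light chain gene Myl2. The calcium pump gene Atp2a2 stood at −0.13 ± 0.10. The myosin heavy chain gene Myh7 stood at 0.12 ± 0.21, and its groups overlapped. Another 3 genes of that list, Myh6, Myl3 and Tnni3, were under the filter and were not tested. Myh6 was at 24.1 and 19.5 in control and at 6.87 and 7.80 in transgenic samples, a change of −0.69. Myl3 was at 37.7 and 35.0 in control and at 29.6 and 7.51 in transgenic samples, a change of −0.68. Tnni3 overlapped, with a change of −0.17. Summed signals were 2198 and 2098 in control and 2190 and 2154 in transgenic samples. Most of these sums was Atp2a2, at 1645 and 1572 in control and at 1478 and 1464 in transgenic samples. Of 9 smooth muscle genes 0 were called in limma and 1 had an unadjusted p under 0.05, with a median of −0.04 and 4 above 0. This median had no stable direction: it was 0.09 and 0.14 when transgenic replicate 1 or 2 was left out, and 0.09 at the 60th percentile filter. Tagln stood at 0.27 ± 0.10, Mylk at −0.21 ± 0.15, Acta2 at 0.20 ± 0.10 and Cnn1 at −0.20 ± 0.35. Summed signals of the smooth muscle list were 9281 and 9853 in control and 9995 and 10733 in transgenic samples. Of these Acta2 held 5114 and 5232 in control and 5708 and 6211 in transgenic samples.

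Genes of other tissues also differed between the groups. Of 4 tested retinal pigment epithelium genes 2 were called higher in limma, Rpe65 at 1.24 ± 0.13 and Rgr at 1.06 ± 0.12. Over all tested probe sets 0.0555% were called higher. All 4 had an unadjusted p under 0.05 and were higher, against 4.14% of all tested. Their median was 0.78, and it was 0.49 over all 5 genes of the list. The 4 lens genes that passed the filter had control means of 13.6 to 25.9, below its level, so they passed only through the transgenic samples and their calls are not counted here. Of 5 fibroblast and 5 corneal epithelium genes 0 were called in limma, with 3 and 1 at an unadjusted p under 0.05 and medians of 0.28 and 0.11. After quantile normalization these medians were 0.15 and −0.06, and the corneal one was 0.21 and 0.02 when transgenic replicate 1 or 2 was left out. The summed signal of the 5 fibroblast genes was 20238 and 19055 in control and 24126 and 24016 in transgenic samples. That of the pigment epithelium list was 9539 and 9560 against 13502 and 14500, and that of the dim lens list was 69.1 and 97.3 against 415 and 428. Most of the pigment epithelium sum was Ttr, at 7533 and 7720 in control and at 10019 and 11205 in transgenic samples. The part of these lists in the muscle values was not tested.

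**Figure D4:**
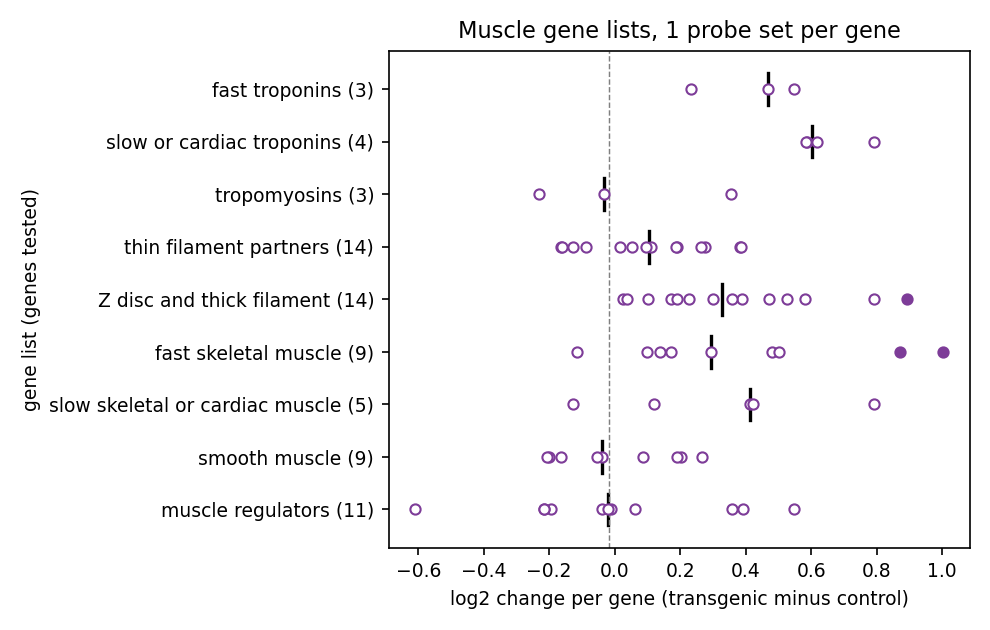
Log2 change per gene (transgenic minus control, of log2(signal + 16)) for the member groups and the muscle lists, 1 probe set per gene with the highest signal; black ticks are medians, filled points passed an adjusted p of 0.05, and the dashed line is the median of all tested probe sets at −0.02. Medians are 0.47 for fast and 0.60 for slow or cardiac troponin genes, and the tropomyosin median of −0.03 rests on the brightest probe sets, which leave out the Tpm3 probe sets that rose.

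The profile of the fast troponins over the 4 arrays was set against that of every other tested gene. Among 22901 tested probe sets with 1 symbol, the smallest distances to the mean centred log2 profile of Tnnt3, Tnni2 and Tnnc2 were 0.02 for Dhtkd1, 0.03 for Ttll12, 0.03 for Zswim3, 0.04 for Zfp91 and 0.04 for Ppp1r3c, which encodes a glycogen-targeting subunit of protein phosphatase. Their changes lay between 0.40 and 0.45, and none was called in limma. Ppp1r3c was at 2474 and 2548 in control and at 3250 and 3372 in transgenic samples. The nearer ones were dimmer, with control means of 50.1 for Dhtkd1, 128 for Ttll12, 36.0 for Zswim3 and 45.8 for Zfp91. With 4 arrays this likeness is a description only.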

How the data were processed

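The deposited values are linear signal intensities by the authors for 45101 probe sets on each array. The software behind them and the genome build are not given in the sources used here. They were used as deposited because trimmed means differed by under 5%. The 64 array controls were left out, the log2 values of the 2 control arrays were averaged, and probe sets with a mean log2(signal + 16) above the 40th percentile were tested. limma 3.58.1 in R 4.3.3 was fitted with an intensity trend (two-sided, Benjamini-Hochberg). The fit had 1 residual and 10.3 prior degrees of freedom and assumes that the lone control sample varies like the transgenic samples. The model was also run on data simulated from its own fitted variances, with equal variance for all samples of a probe set. That run cannot show whether the assumption about the control sample holds.

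Genes were named from the platform annotation (34958 probe sets with 1 symbol, 932 with several, 9211 with none), and all member symbols matched RefSeq by gene identifier. Members and gene lists were chosen with earlier results of these data known. The lists overlap in places and are described by counts and medians. The text names all members and the 5 nearest profiles. Within each list it names genes past the threshold, lens genes aside, and at most 4 tested genes by absolute change. Tpm4, Tnni3, Myh4, Myh6, Myh7 and Myl3 were named after their values were seen. With so few arrays every value has low precision.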

Additional observations from a re-analysis of the deposited data

How the results depend on the processing

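Both Tpm3 calls ended in limma without the filter, without the intensity trend and without control replicate 1. Without the filter 0 of 24 members and 0 of all probe sets were called, against 2181 at an unadjusted p under 0.05. Without the intensity trend these counts were 0 and 0, against 1059. Leaving out a control array gave 0 to 2 called members and 14 to 33 called probe sets, against 2 and 21. Without a transgenic array no test is possible. Counts over all probe sets were 39 after quantile normalization and 56 after median centring, of which 19 and 9 were lower, against 6 of 21. With all 4 arrays as separate samples 4 members and 135 probe sets were called. With the replicate block these counts were 9 and 1740; the labels give no pairing by number, same-numbered deviations correlate at 0.10, and the control arrays are 1 sample. Of 336 values of single members in other settings, 9 changed sign.

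The median over all members was 0.23 at a pseudocount of 64, 0.22 without the filter, 0.23 at the 60th percentile filter and 0.17 to 0.38 without 1 array. The fast troponin median was 0.23 without the filter and 0.30 to 0.39 without 1 array. The tropomyosin median was 0.10 after quantile normalization, 0.16 after median centring and 0.10 to 0.16 without 1 array. Probe sets that changed sign when 1 array was left out were the _x_at one of Tnni2 (−0.061 to 0.13), the untested one of Tnni2 (−0.51 to 0.083), one of Tpm1 (−0.16 to 0.032), the brightest of Tpm2 (−0.071 to 0.0031) and Tpm3 probe sets that did not pass (−0.082 to 0.16 and −0.15 to 0.27). Averaged over its tested probe sets the change was 0.14 for Tpm2 and 0.36 for Tpm3, against −0.03 and −0.23 by the brightest one. Why these values moved was not tested beyond the construction of each alternative.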

Other observations

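Genes of muscle transcription factors, which control when troponin genes are used, were spread to both sides of 0. Of 11 tested genes 0 were called in limma and 1 had an unadjusted p under 0.05, with a median log2 change of −0.02, 4 above 0 and 7 below. The median was 0.03 over all 14 genes with a probe set, 0.02 after quantile normalization and −0.04 to 0.02 without 1 array. Myf6, the regulatory factor of mature fibres, was at 58.5 and 79.3 in control and at 120 and 95.2 in transgenic samples, a change of 0.55 ± 0.25 (SE). Myod1, the factor of early muscle determination, was at 50.2 and 41.3 in control and at 29.0 and 20.3 in transgenic samples, a change of −0.61 ± 0.38. Both transgenic signals of Myod1 lay below the filter level of 30.0, so it passed the filter only through the control arrays. Six4 stood at 0.39 ± 0.31 and Mef2c at 0.36 ± 0.17, and neither passed.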
